A study of Mus musculus with 9 samples.

Results

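The chemokine genes Cxcl2, Cxcl10, Ccl2, Ccl3, Ccl4, Ccl6 and Ccl9 and the cytokine gene Tnf, 8 of the 23337 genes listed, were followed in CD11b+ bone marrow cells of 9 mice. The genes were taken by symbol as the chemokine and Tnf genes of myeloid cells, and no threshold on a measured value entered the choice. The choice was made with earlier results of these data known, so comparisons of the set with all genes are descriptions only. All 8 genes passed the filter on low counts, as did 12553 genes in all. Marrow was flushed from femurs and tibias of male C57BL/6 mice, red cells were lysed, CD11b+ cells were taken by positive magnetic selection, and 1 library of total RNA was sequenced per mouse, with 3 mice in each of 3 groups. The PBS group received 100 µl of phosphate buffered saline into the tail vein on days 1, 3 and 5. The EnzR EV group received extracellular vesicles (10 µg of EV protein in 100 µl) on the same days. These vesicles came from CWR-R1 human prostate cancer cells made resistant to enzalutamide, an androgen receptor inhibitor. The EnzR EV + HDL NP group received the same vesicles and, on days 0, 2 and 4, also HDL NPs, synthetic lipoprotein-like particles with a gold core, apolipoprotein A-1 and phospholipids, in 100 µl at 1 µM according to the labels, while the study's methods give a higher dose. Marrow was collected on the day after the final injection. No tumour cells were injected, and the vesicles were those of a single human cell line given to mouse hosts. HDL NPs were not given without EVs, so their own action cannot be told apart from an action on the EV response. For the other groups no injection is given on days 0, 2 and 4. The additional injections therefore cannot be told apart from the HDL NPs.

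Chemokines are small secreted proteins that bind receptors coupled to G proteins and direct the movement of leukocytes. In marrow they help to set how neutrophils and monocytes are retained or released, and Ccl2 acting on Ccr2 is known for drawing monocytes out of the marrow. Most of these genes are kept low in resting myeloid cells and are induced within hours by NF-kB and AP-1, with Cxcl10 also induced by interferon, whereas Ccl6 and Ccl9 are expressed by mouse myeloid cells without stimulation. Tnf, made as a membrane protein and released by the protease Adam17, is a cytokine that itself induces several of these chemokines.

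Library totals ranged from 2575776 counts in EnzR EVs replicate 1 to 18110561 in EnzR EVs replicate 2. The share of counts on Rn45s, the ribosomal RNA precursor, was 14.2% in EnzR EVs replicate 3, 20.3% in PBS replicate 1 and 42.7% in EnzR EVs replicate 1, against 0.657% to 2.87% in the other 6 libraries. These 3 libraries stood apart, and results of the 8 genes and counts of genes called are in part also given without them. The other gene lists are given with all libraries only. Itgam, which encodes CD11b, stood at 1389 to 2006 TMM CPM in all 9 libraries (CPM scaled by factors from the trimmed mean of M-values, the scale of all levels below unless given per kb). By edgeR's quasi-likelihood test with Benjamini-Hochberg adjustment, 0 of 12553 genes passed an adjusted p of 0.05 in any of the 3 comparisons between groups. At an unadjusted p under 0.05, edgeR gave 436 genes for EnzR EVs against PBS, 268 for EnzR EVs + HDL NPs against PBS and 1325 between the EV groups, while DESeq2 called 11, 8 and 1 genes after adjustment and limma's voom 0 in each.

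Per kb of exon, Ccl6 was the most abundant of the 37 chemokine ligand and Tnf genes examined, at a mean of 313 TMM CPM per kb over the 9 libraries. Ccl9 followed at 38.2, Cxcl2 at 23.1, Ccl3 at 19.99, Tnf at 19.6 and Ccl4 at 14.3 TMM CPM per kb. Cxcl10 stood in position 10 at 1.95 and Ccl2 in position 12 at 1.40 TMM CPM per kb, so the 8 genes spanned a wide range of expression and the last 2 were measured from few reads. The genes between Ccl4 and Cxcl10 in this order were Pf4 (13.2 per kb), Ppbp (12.3 per kb) and Cxcl12 (3.22 per kb), which are ligands of platelets and of marrow stroma. The order of Cxcl2, Ccl3, Tnf and Ccl4 differed between groups. In PBS mice Cxcl2 stood at 32.7 ± 5.46 and Ccl3 at 31.0 ± 1.12 TMM CPM per kb (SD, n = 3), within the spread of Cxcl2, and both were above Ccl4 at 20.96 ± 6.79 and Tnf at 17.5 ± 4.84, which were within their spreads of each other. In EnzR EV mice Cxcl2 (17.8 ± 8.28), Tnf (17.3 ± 7.80), Ccl4 (12.95 ± 4.81) and Ccl3 (10.98 ± 7.17 per kb) lay within their spreads. In EnzR EV + HDL NP mice Tnf stood first at 23.9 ± 4.63 per kb, within the spread of Cxcl2 (18.9 ± 7.72) and above Ccl3 (17.98 ± 4.42) by more than either SD, whereas Ccl4 was below the other 3 by more than any of their SDs, at 8.87 ± 2.96 per kb.

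**Figure D1:**
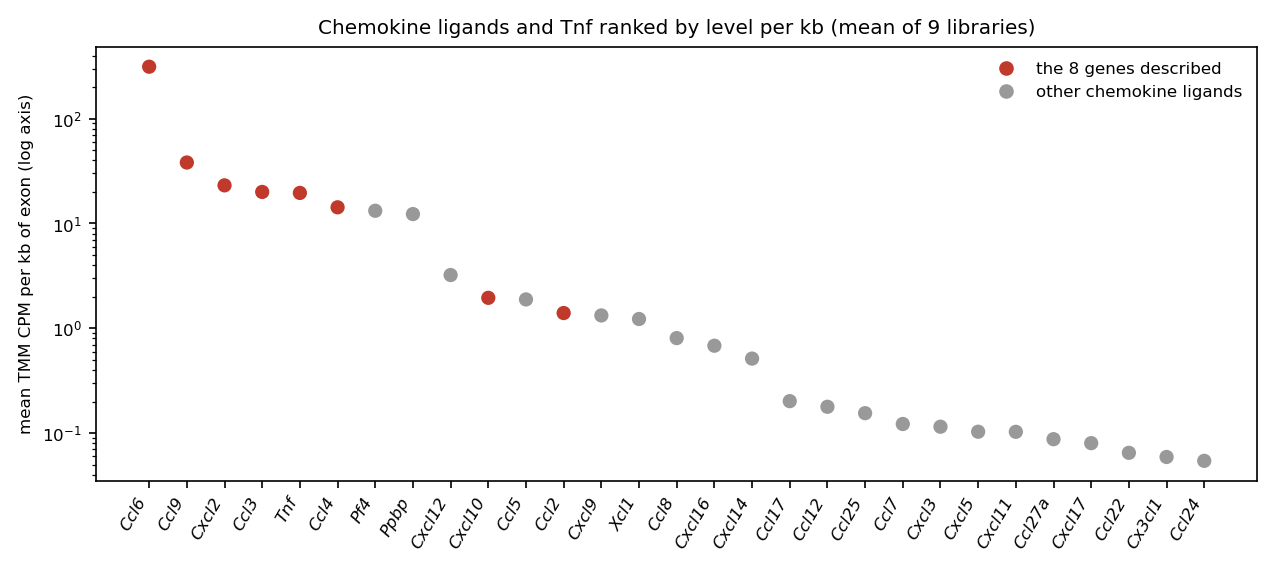
Mean level per kb of exon over 9 libraries (TMM CPM per kb, log axis) of the chemokine ligand genes and Tnf, in descending order; red points are the 8 genes described and grey points are other chemokine ligands. Ccl6 stands at 313 per kb, above Ccl9 at 38.2 per kb, and Ccl2 is the lowest of the 8 at 1.40 per kb.

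Reads on chemokine ligand genes were dominated by one pair. Ccl6 and Ccl9 together took 79.7% to 86.5% of the reads on 36 ligand genes in every library, and Ccl6 alone 60.6% to 73.5%. The 7 chemokines described here and Tnf thus include the ligands that make up most of the chemokine RNA in these cells. Summed over the 36 ligand genes, the level was 963.9 ± 218 TMM CPM in PBS mice, 607 ± 163 in EnzR EV mice and 886 ± 177 in EnzR EV + HDL NP mice (SD, n = 3 each).

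Ccl3, Ccl4, Ccl6 and Ccl9 lie in one cluster on chromosome 11, from the start of Ccl9 to the end of Ccl4 over 91.8 kb (chr11:83572919-83664683, GRCm38), with Ccl2 on the same chromosome at chr11:82035571-82037453. Cxcl2 (chr5:90903871-90905938) and Cxcl10 (chr5:92346638-92348889) lie on chromosome 5 and Tnf (chr17:35199381-35202007) on chromosome 17. Counts refer to all exons of a gene. On the opposite strand Art3 overlaps Cxcl10, Gm17268 overlaps Ccl2 and E230016K23Rik overlaps Ccl6, and a long RefSeq model of Ccl4 spans Ccl3, so that reads of these pairs would be separated only if strand was used in counting, a setting not given in the sources used here.

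RefSeq promoter windows (GRCm38.p6, 250 bases before the start site) were matched for 6 of the 8 genes (not Ccl2 and Ccl4). The whole window of Cxcl10, 122 bases of that of Cxcl2 (from −150 to −29) and the last 150 of that of Ccl3 are shown as examples. Cxcl10 was higher than PBS without overlap in the EnzR EV + HDL NP group only. Cxcl2 and Ccl3 were lower than PBS without overlap in both EV groups. Ccl9, lower than PBS without overlap in the EnzR EV group only, also had a matched window, which is not shown. The strand shown is that of the gene (chr5:92348890-92349139 minus for Cxcl10, chr5:90903749-90903870 plus for Cxcl2 and chr11:83649379-83649528 minus for Ccl3), and capitals mark matches to the searched motifs.
Cxcl10: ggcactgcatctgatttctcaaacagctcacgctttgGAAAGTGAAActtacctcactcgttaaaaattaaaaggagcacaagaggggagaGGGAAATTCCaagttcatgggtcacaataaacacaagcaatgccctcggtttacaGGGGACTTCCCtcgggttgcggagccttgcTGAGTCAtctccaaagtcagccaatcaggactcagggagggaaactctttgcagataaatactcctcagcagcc
Cxcl2: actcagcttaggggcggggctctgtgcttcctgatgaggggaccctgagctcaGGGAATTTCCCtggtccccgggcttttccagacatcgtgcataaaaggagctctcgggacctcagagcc
Ccl3: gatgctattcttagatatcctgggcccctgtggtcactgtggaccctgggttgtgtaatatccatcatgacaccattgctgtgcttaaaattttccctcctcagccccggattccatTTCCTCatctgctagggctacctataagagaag
Both strands of the whole windows were searched for the NF-kB consensus, the interferon-stimulated response element GAAANNGAAA, AP-1 TGANTCA, CRE TGACGTCA, TATAAA, PU.1 GAGGAA and C/EBP TTGCNNAA. The capitals of Cxcl10 are, in order, a response element match, an NF-kB match, overlapping NF-kB matches and an AP-1 match. Those of Cxcl2 are overlapping NF-kB matches, and those of Ccl3 a PU.1 match on the other strand. Of 32851 promoters of the same length, 7.25% hold the NF-kB letters, 2.98% the response element, 6.75% AP-1, 1.55% CRE, 12.4% TATAAA, 23.3% PU.1 and 9.56% C/EBP. Among the other windows, Ccl9 held NF-kB, AP-1 and TATAAA matches and Tnf a TATAAA and a PU.1 match, while Ccl6 held none of these letters. A match describes the sequence only.

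The 8 genes were first compared as a group with all genes tested. In EnzR EVs against PBS, 6 of 8 genes had a log2 fold change below 0 and the median was −0.58, against 53.5% of all genes tested and a median of −0.03. In EnzR EVs + HDL NPs against PBS, again 6 of 8 were below 0, with a median of −0.47 against −0.01 over all genes, of which 51.1% were below 0. Between the EV groups, 6 of 8 were above 0 with HDL NPs, with a median of 0.36 against 0.03, and 47.2% of all genes were below 0. The comparisons share samples, so these counts are not independent of each other. The 3 libraries of high Rn45s share were also left out, which leaves 1 EnzR EV mouse. For EnzR EVs against PBS, Cxcl2 (−0.14), Ccl3 (−0.71), Ccl4 (−0.55), Ccl6 (−0.54) and Ccl9 (−0.04) were then below 0. Cxcl10 (1.06), Ccl2 (0.96) and Tnf (0.24) were above 0. Between the EV groups, Cxcl2 (−0.51), Ccl2 (−1.71), Ccl3 (−0.10), Ccl4 (−0.39), Ccl9 (−0.10) and Tnf (−0.0053) were then below 0. Cxcl10 (0.12) and Ccl6 (0.31) were above 0. With all 9 libraries, none of the 8 genes passed the adjusted threshold in any comparison by edgeR (0% of all genes tested passed), by DESeq2 or by limma's voom. In the test for any difference among the 3 groups 0% of genes passed too, and 3 of the 8, Cxcl10, Ccl3 and Ccl4, had an unadjusted edgeR p under 0.05 against 4.47% of all genes. That number was 5 with upper-quartile scaling (4.68% of all genes), DESeq2 (7.59%), voom (3.70%), no filter on low counts (3.92%) or the replicate number as a block (10.4%), and 6 without EnzR EVs replicate 2 (18.8%) or with voom and weights for library quality (38.0%). It was 1 of the 5 genes tested at 10 counts in every library (4.63%). Without PBS replicate 1 (7.87% of all genes) or PBS replicate 2 (2.82%) it was 2. It was also 2 without EnzR EVs + HDL NPs replicate 1 (343 of 12705 genes).

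For EnzR EVs against PBS, 3 of the 8 genes (Cxcl2, Ccl3 and Ccl6) were lower at an unadjusted edgeR p under 0.05, against 1.92% of all genes, and 0 were higher, against 1.55%. The groups did not overlap for 3 genes that were lower (Cxcl2, Ccl3 and Ccl9), against 4.52% of all genes, and for 0 that were higher, against 3.43%. The replicate number was also run as a block, since same-numbered PBS and EnzR EV libraries deviated together. Replicate 1 of both groups also had a high Rn45s share. With the block, the number at an unadjusted edgeR p under 0.05 rose from 3 to 5 (Cxcl2, Ccl3, Ccl4, Ccl6 and Ccl9). Among all genes the share was 5.95% (747 in place of 436). After adjustment 0 of the 8 passed (adjusted p = 0.739 for each of these 5, edgeR). With limma's voom and weights for library quality, a setting added once the data had been seen, these 5 genes passed an adjusted p of 0.05 (0.0163 for Cxcl2, 0.00531 for Ccl3, 0.0289 for Ccl4, 0.0145 for Ccl6 and 0.0295 for Ccl9), as did 1990 genes in all. Without the 3 libraries of high Rn45s share, which leaves 1 EnzR EV mouse assumed to vary like the other groups, 0 of the 8 passed and 2 stood at an unadjusted p under 0.05, against 5.59% of all genes. Without PBS replicate 2 that number was 1, against 1.56% of all genes.

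For EnzR EVs + HDL NPs against PBS, 3 genes (Cxcl2, Ccl3 and Ccl4) were lower at an unadjusted edgeR p under 0.05, against 1.12% of all genes, and 1 (Cxcl10) was higher, against 1.02%. Groups were separate and lower for 4 genes (Cxcl2, Ccl2, Ccl3 and Ccl4), against 6.21% of all genes, and separate and higher for Cxcl10, against 6.95%. Without the 3 libraries of high Rn45s share, of which only PBS replicate 1 belongs to this comparison, 4 of the 8 were at an unadjusted p under 0.05, against 4.72% of all genes. The number was 2 without PBS replicate 1, 2 or 3 (1.37%, 2.04% and 2.02% of all genes) or EnzR EVs + HDL NPs replicate 3 (1.11%). It was also 2 with scaling by library size only (1.48% of all genes), where Cxcl2 (unadjusted p = 0.0726, edgeR) and Ccl3 (unadjusted p = 0.110) no longer passed, and 1, Ccl4, of the 5 genes tested at 10 counts in every library (1.86%).

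Between EnzR EVs + HDL NPs and EnzR EVs, 1 gene (Ccl6) was higher with HDL NPs at an unadjusted edgeR p under 0.05, against 3.58% of all genes, and 0 were lower, against 6.97%. The number at an unadjusted p under 0.05 in either direction was 3 without EnzR EVs replicate 2, where 29.3% of all genes were, and 0 without EnzR EVs replicate 3 (5.90% of all genes) or EnzR EVs + HDL NPs replicate 1 (6.38%) or 2 (5.23%). With the replicate block it was 2 (Ccl6, and Ccl4 lower at −0.54, unadjusted p = 0.0308, adjusted p = 0.246, edgeR), against 18.2% of all genes. The groups overlapped for all 8 genes, whereas 8.58% of all genes had separate groups that were lower and 8.99% separate groups that were higher.

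**Figure D2:**
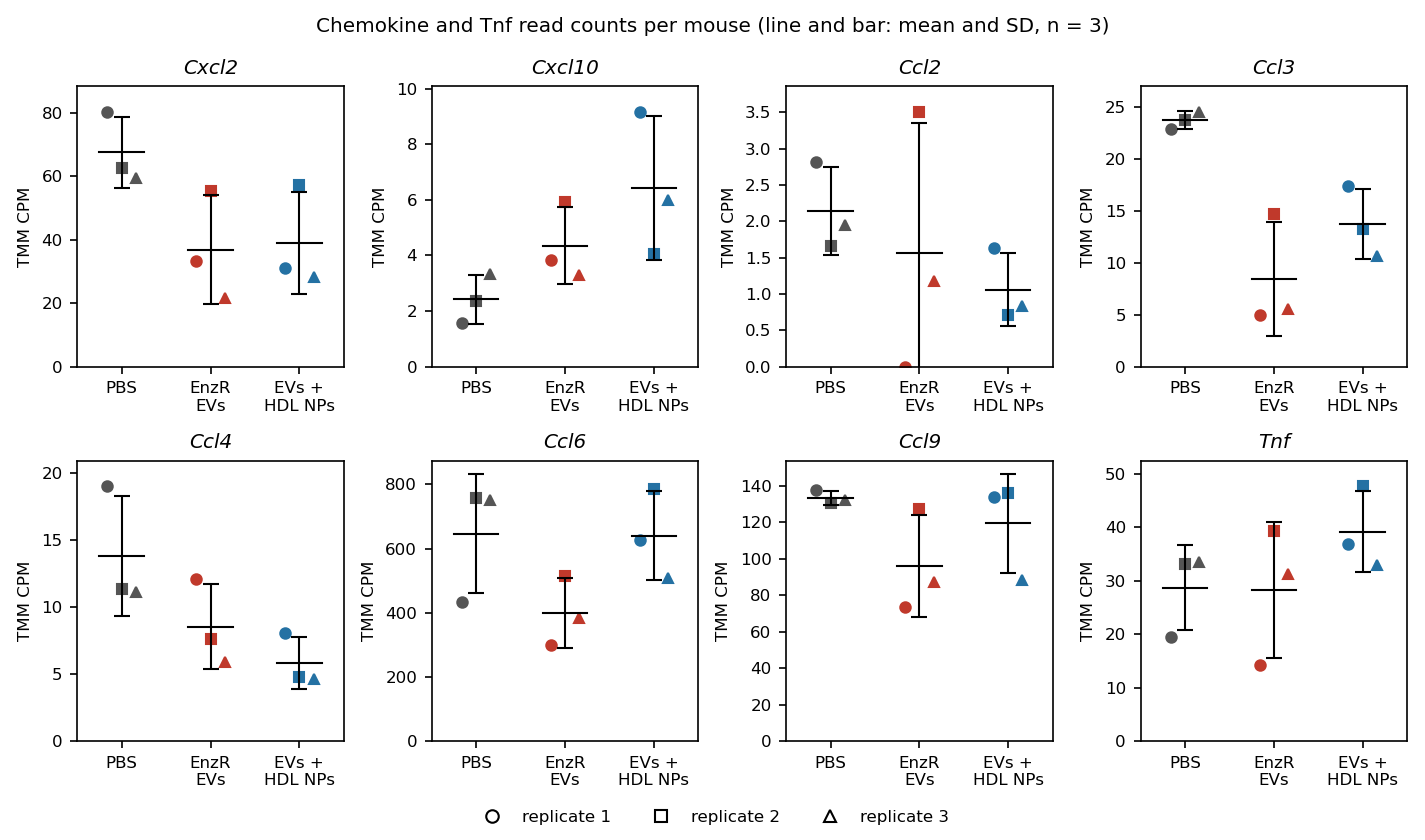
Level of each gene in each mouse (TMM CPM, linear axes from 0); the marker shape is the replicate number, the line the mean and the bar the SD of 3 mice, cut at 0 for Ccl2. PBS mice sit above both EV groups for Cxcl2 and Ccl3, EnzR EV + HDL NP mice sit above PBS for Cxcl10 and below PBS for Ccl4, and all groups overlap for Ccl6 and Tnf.

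Cxcl2, the neutrophil chemoattractant that acts through Cxcr2, stood at 80.4, 62.7 and 59.4 TMM CPM in the PBS mice (replicates 1, 2 and 3). The EnzR EV mice had 33.5, 55.4 and 21.6, and the EnzR EV + HDL NP mice 31.2, 57.3 and 28.4 TMM CPM. Every mouse of both EV groups was below every PBS mouse, although replicate 2 of each EV group came close to the lowest PBS mouse. Means were 67.5 ± 11.3, 36.8 ± 17.1 and 39.0 ± 15.96 TMM CPM (SD, n = 3 each). The log2 fold change against PBS was −0.86 in the EnzR EV group (SE 0.357, unadjusted p = 0.0365, adjusted p = 0.928, edgeR; exact permutation p = 0.10, the smallest that 3 against 3 allow). With HDL NPs it was −0.79 (SE 0.351, unadjusted p = 0.0471, adjusted p = 1.00, edgeR). The EV groups differed by 0.07, with a 95% interval of −0.72 to 0.85. Without the 3 libraries of high Rn45s share the EnzR EV difference was −0.14 and the HDL NP difference −0.65, so the size of the former depended on EnzR EVs replicates 1 and 3 and PBS replicate 1, and it was −1.31 without EnzR EVs replicate 2; the part of Rn45s in it was not tested.

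Ccl3 and Ccl4 encode related inflammatory chemokines that are induced early in activated myeloid cells, and Ccl3 binds Ccr1. Ccl3 was measured at 22.9, 23.8 and 24.6 TMM CPM in PBS mice, at 4.94, 14.7 and 5.56 in EnzR EV mice and at 17.4, 13.2 and 10.7 in EnzR EV + HDL NP mice. The PBS mice lay close together and above all 6 mice given EVs, while the EV groups overlapped. The value of EnzR EVs replicate 1 came from 9 reads, which gives an exact Poisson interval of 2.26 to 9.37 TMM CPM for counting error alone. Mean levels were 23.7 ± 0.859, 8.41 ± 5.49 and 13.8 ± 3.39 TMM CPM (SD, n = 3 each).

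The EnzR EV group was lower than PBS by 1.38 on the log2 scale for Ccl3 (log2 fold change −1.38, SE 0.367, 95% interval −2.19 to −0.57). This was the largest difference among the 8 genes in that comparison and position 24 of 12553 genes by p (unadjusted p = 0.00343, adjusted p = 0.928, edgeR; exact permutation p = 0.10). It ranged from −2.13 without EnzR EVs replicate 2 to −1.12 without EnzR EVs replicate 3. Without the 3 libraries of high Rn45s share it was −0.71, smaller in size than the 1.06 of Cxcl10 and the 0.96 of Ccl2. In the EnzR EV + HDL NP group the difference from PBS was −0.79 (SE 0.349, unadjusted p = 0.0467, adjusted p = 1.00, edgeR), and it was −0.81 without those libraries. The EnzR EV + HDL NP group stood 0.59 above the EnzR EV group on the log2 scale (95% interval −0.21 to 1.40), a difference that became −0.10 without those libraries and 1.34 without EnzR EVs replicate 2 alone (unadjusted p = 0.000668, adjusted p = 0.0833, edgeR). It was 0.33 without EnzR EVs replicate 3, 0.395 without EnzR EVs + HDL NPs replicate 1 and 1.02 with voom and quality weights.

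Ccl4 stood at 19.0, 11.3 and 11.2 TMM CPM in PBS mice. In EnzR EV mice it stood at 12.1, 7.66 and 5.91 and in EnzR EV + HDL NP mice at 8.11, 4.77 and 4.68 TMM CPM. In each group replicate 1 was the highest, EnzR EVs replicate 1 reached into the PBS range, and all 3 EnzR EV + HDL NP mice were below all PBS mice. Means were 13.8 ± 4.48, 8.55 ± 3.17 and 5.85 ± 1.95 TMM CPM (SD, n = 3 each). The EnzR EV + HDL NP group had a log2 fold change of −1.22 against PBS (SE 0.335, 95% interval −1.96 to −0.48, position 21 of 12553 genes by p, unadjusted p = 0.00423, adjusted p = 1.00, edgeR; exact permutation p = 0.10). It was −0.93 without the 3 libraries of high Rn45s share. The EnzR EV group had −0.77 (SE 0.350, unadjusted p = 0.0519, adjusted p = 0.928, edgeR), and −0.50 without PBS replicate 1. The EV groups differed by −0.45 (95% interval −1.23 to 0.33), by −0.23 without EnzR EVs replicate 1 and by −0.78 without EnzR EVs + HDL NPs replicate 1.

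Although Ccl3 and Ccl4 are neighbours that are often induced together, their ratio varied between libraries. Ccl3 reads per Ccl4 read were 1.20, 2.10 and 2.21 in PBS mice, 0.409, 1.92 and 0.940 in EnzR EV mice and 2.15, 2.78 and 2.28 in EnzR EV + HDL NP mice. The 3 lowest ratios were those of the 3 libraries with high Rn45s shares, one of which is a PBS library; the part of Rn45s in this ratio was not tested. A ratio within a library does not depend on the scaling of that library.

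**Figure D3:**
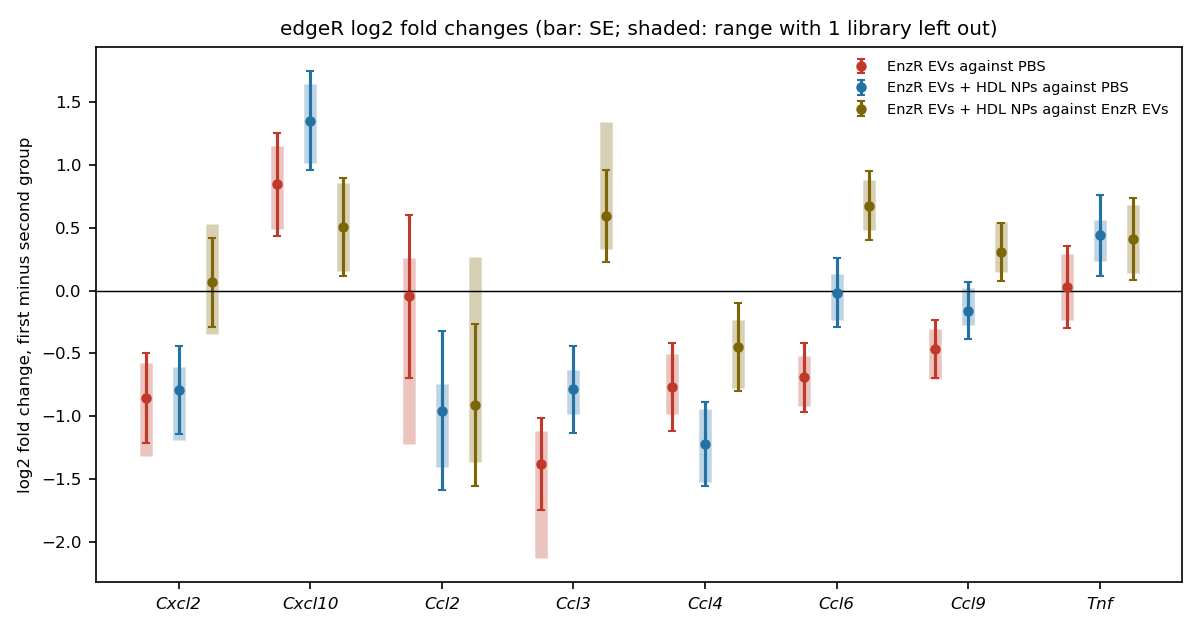
edgeR log2 fold changes of the 8 genes in the 3 comparisons (first minus second group); points are the estimates, bars the SE and shaded ranges the values with 1 library left out. Ccl3 reaches −1.38 for EnzR EVs against PBS and Cxcl10 1.35 for EnzR EVs + HDL NPs against PBS, and the shaded ranges of Ccl2, Cxcl2, Tnf, Ccl6 and Ccl9 cross 0 in at least 1 comparison.

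Cxcl10, an interferon-induced ligand of Cxcr3 that draws T cells and NK cells, had the opposite direction. It was listed at 1.58, 2.36 and 3.32 TMM CPM in PBS mice, 3.84, 5.91 and 3.31 in EnzR EV mice and 9.18, 4.05 and 6.01 in EnzR EV + HDL NP mice. All 3 EnzR EV + HDL NP mice were above all PBS mice, and EnzR EVs replicate 3 was level with PBS replicate 3, so those groups overlapped. Counts were small, from 7 reads in EnzR EVs replicate 1 and 9 in PBS replicate 1 to 163 in EnzR EVs + HDL NPs replicate 1. Mean levels were 2.42 ± 0.869, 4.35 ± 1.37 and 6.41 ± 2.58 TMM CPM (SD, n = 3 each). The log2 fold change against PBS was 1.35 in the EnzR EV + HDL NP group (SE 0.392, 95% interval 0.48 to 2.22, position 28 of 12553 genes by p, unadjusted p = 0.00577, adjusted p = 1.00, edgeR; exact permutation p = 0.10). It stayed between 1.02 and 1.64 with 1 library left out and was 1.18 without the 3 libraries of high Rn45s share. For EnzR EVs against PBS the value was 0.85 (SE 0.411, unadjusted p = 0.0654, adjusted p = 0.928, edgeR; exact permutation p = 0.20), and 1.06 without those libraries, 0.49 without EnzR EVs replicate 2 and 0.44 with voom and quality weights. The EV groups differed by 0.51 (95% interval −0.36 to 1.38), by 0.86 without EnzR EVs replicate 2 and by 0.15 without EnzR EVs + HDL NPs replicate 1.

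Ccl2, the ligand of Ccr2, was near the limit of detection. Its levels were 2.82, 1.67 and 1.95 TMM CPM in PBS mice, 0, 3.51 and 1.18 in EnzR EV mice and 1.63, 0.715 and 0.838 in EnzR EV + HDL NP mice. EnzR EVs replicate 1 had 0 reads, for which the exact Poisson interval reaches 2.02 TMM CPM. The floor of 3 counts stands at 1.65 TMM CPM in this smallest library. EnzR EVs replicate 2 was the highest of all 9 mice. The EnzR EV + HDL NP mice were all below the PBS mice, the nearest pair being 1.63 and 1.67 TMM CPM. Against PBS the log2 fold change was −0.95 with HDL NPs (SE 0.633, unadjusted p = 0.161, adjusted p = 1.00, edgeR). For EnzR EVs against PBS it was −0.04 (95% interval −1.48 to 1.39). It was 0.26 without EnzR EVs replicate 1 and −1.22 without EnzR EVs replicate 2, so no difference was resolved. The EV groups differed by −0.91 (95% interval −2.33 to 0.51), and by −1.71 without the 3 libraries of high Rn45s share. Their difference was −1.20 without EnzR EVs replicate 1 (unadjusted p = 0.0415, adjusted p = 0.801, edgeR) and 0.27 without EnzR EVs replicate 2.

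Ccl6 and Ccl9 encode mouse ligands of Ccr1 and were the ligands with most reads. Ccl6 was present at 432, 757 and 750.2 TMM CPM in PBS mice, 301, 516 and 384 in EnzR EV mice and 625, 784 and 509.5 in EnzR EV + HDL NP mice. In both the PBS and the EnzR EV groups replicate 1, with a high Rn45s share, was the lowest, and all groups overlapped. Means were 646 ± 185, 400.3 ± 109 and 639.7 ± 138 TMM CPM (SD, n = 3 each). Ccl6 had a log2 fold change of −0.69 for EnzR EVs against PBS (SE 0.276, unadjusted p = 0.0303, adjusted p = 0.928, edgeR; exact permutation p = 0.20) and of −0.02 for EnzR EVs + HDL NPs against PBS (95% interval −0.62 to 0.59). With HDL NPs it stood 0.67 above the EnzR EV group on the log2 scale (SE 0.276, unadjusted p = 0.0334, adjusted p = 0.461, edgeR; exact permutation p = 0.20), and 0.31 above it without the 3 libraries of high Rn45s share. Limma's voom gave an adjusted p of 0.580 for the difference between the EV groups. With sample quality weights, a setting added once the data had been seen, voom gave an adjusted p of 0.0489. Under those weights 31% of all genes had an unadjusted voom p under 0.05 in this comparison.

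Ccl9 levels were 137, 130.4 and 132 TMM CPM in PBS mice, 73.5, 127 and 87.0 in EnzR EV mice and 134, 136 and 88.3 in EnzR EV + HDL NP mice. The EnzR EV mice were all below the PBS mice, EnzR EVs replicate 2 by little, and the EnzR EV + HDL NP mice covered both ranges. Means were 133 ± 3.71, 95.9 ± 28.0 and 119 ± 27.0 TMM CPM (SD, n = 3 each). The difference of EnzR EVs from PBS was −0.46 on the log2 scale (SE 0.231, unadjusted p = 0.0710, adjusted p = 0.928, edgeR; exact permutation p = 0.10) and −0.04 without the 3 libraries of high Rn45s share, −0.31 without EnzR EVs replicate 1 and −0.70 without EnzR EVs replicate 2. Against PBS the HDL NP group differed by −0.16 (95% interval −0.66 to 0.35), and against EnzR EVs by 0.30 (95% interval −0.20 to 0.81), which ranged from 0.15 without EnzR EVs replicate 1 to 0.54 without EnzR EVs replicate 2. Ccl6 reads per Ccl9 read ranged from 3.14 to 5.80 in PBS mice. They ranged from 4.05 to 4.42 in EnzR EV mice and from 4.67 to 5.77 in EnzR EV + HDL NP mice. The EV groups did not overlap in this ratio, and the PBS range covered both. How often other gene pairs are separate was not computed.

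Tnf, the cytokine of the set, stood at 19.5, 33.1 and 33.5 TMM CPM in PBS mice, 14.3, 39.3 and 31.3 in EnzR EV mice and 36.9, 47.7 and 33.0 in EnzR EV + HDL NP mice. All groups overlapped, and the lowest values were those of replicate 1 of the PBS and EnzR EV groups, the libraries with the smallest totals. Means were 28.7 ± 7.93, 28.3 ± 12.8 and 39.2 ± 7.59 TMM CPM (SD, n = 3 each). The log2 fold change of EnzR EVs against PBS was 0.03 (95% interval −0.70 to 0.75, adjusted p = 0.994, edgeR). The EnzR EV + HDL NP group had 0.44 against PBS (SE 0.322, unadjusted p = 0.201, adjusted p = 1.00, edgeR) and 0.41 against EnzR EVs (95% interval −0.31 to 1.133), the latter being −0.01 without the 3 libraries of high Rn45s share, 0.14 without EnzR EVs replicate 1 and 0.68 without EnzR EVs replicate 2. The former was 0.24 without PBS replicate 1 and 0.27 without EnzR EVs + HDL NPs replicate 2.

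Cxcl2 and Tnf, both NF-kB target genes, were also compared within libraries. Cxcl2 reads per Tnf read were 4.12, 1.90 and 1.78 in PBS mice, 2.35, 1.41 and 0.691 in EnzR EV mice and 0.846, 1.20 and 0.860 in EnzR EV + HDL NP mice. The EnzR EV + HDL NP mice were all below the PBS mice, as for Cxcl2 alone, and the EnzR EV mice overlapped with both. How often ratios of other gene pairs are separate was not computed. PBS replicate 1, with a Rn45s share of 20.3%, had the highest ratio.

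**Figure D4:**
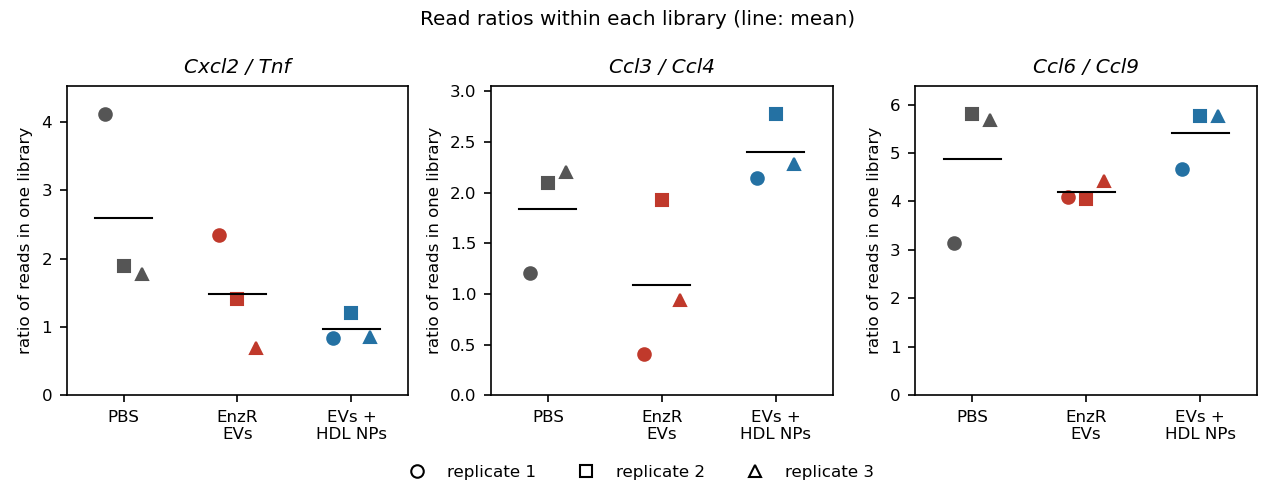
Ratio of reads on gene pairs within each library, by group; points are mice, the marker shape is the replicate number and the line is the mean. EnzR EV + HDL NP mice lie between 0.846 and 1.20 for Cxcl2 over Tnf, below the PBS range of 1.78 to 4.12, and the lowest Ccl3 over Ccl4 ratio is 0.409 in EnzR EVs replicate 1.

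Receptors of these ligands were measured in the same cells. Of 12 receptor genes, 10 passed the filter and 0 passed an adjusted p of 0.05 by edgeR in any comparison; 7 of 10 were below 0 for EnzR EVs against PBS (median −0.14), 3 of 10 with HDL NPs against PBS (median 0.12) and 1 of 10 between the EV groups (median 0.18). The abundant receptors were Ccr2, at 562 ± 36.6, 434 ± 116 and 564 ± 114 TMM CPM, and Cxcr2, the Cxcl2 receptor, at 533 ± 173, 519.9 ± 167 and 590.4 ± 110 TMM CPM in the PBS, EnzR EV and EnzR EV + HDL NP mice (SD, n = 3 each). Ccr1, the receptor of Ccl3, Ccl6 and Ccl9, stood at 352 ± 108, 296 ± 157 and 428 ± 86.4 TMM CPM in the same order. All 3 overlapped between every pair of groups.

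Cxcr3, the Cxcl10 receptor, was low, at 1.02 ± 0.208, 1.03 ± 0.471 and 1.40 ± 0.241 TMM CPM (SD, n = 3 each). Ccr3, an eosinophil receptor, stood at 57.5 ± 24.6, 39.3 ± 12.3 and 53.0 ± 11.02 TMM CPM, and Ccr1l1 reached at most 1.14 TMM CPM. Ackr1 and Ackr2, decoy receptors listed as Darc and Ccbp2, did not pass the filter, at no more than 0.828 and 0.236 TMM CPM. Cxcr1 stood at 1.58, 1.67 and 2.17 TMM CPM in PBS mice and at 8.23, 3.78 and 5.67 in EnzR EV mice, which did not overlap (log2 fold change 1.58, SE 0.507, unadjusted p = 0.0104, adjusted p = 0.928, edgeR). In EnzR EV + HDL NP mice it stood at 1.01, 2.74 and 4.12 TMM CPM, overlapping both.

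Both Tnf receptors were abundant. Tnfrsf1a stood at 228 ± 38.2, 198 ± 44.5 and 224 ± 27.3 TMM CPM in the PBS, EnzR EV and EnzR EV + HDL NP mice (SD, n = 3 each). Tnfrsf1b stood at 219, 226 and 221 TMM CPM in PBS mice, at 116, 210.1 and 209 in EnzR EV mice and at 175, 203 and 209.6 in EnzR EV + HDL NP mice. Every mouse given EVs was below every PBS mouse for Tnfrsf1b, with log2 fold changes of −0.31 (SE 0.216) and −0.18 (SE 0.215) that did not pass (adjusted p = 0.928 and 1.00, edgeR).

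Among 29 other chemokine ligands, 9 passed the filter and 0 passed the test; 8 of 9 were below 0 for EnzR EVs against PBS, 6 of 9 with HDL NPs against PBS and 3 of 9 between the EV groups. The most abundant were Cxcl12, Ppbp and Pf4, with PBS levels of 30.6 ± 25.8, 21.3 ± 19.3 and 11.3 ± 6.52 TMM CPM (SD, n = 3 each), SDs that were over 0.5 of each mean. Of 18 genes of Tnf synthesis, shedding and decay 17 were tested, 7 were below 0 for EnzR EVs against PBS (median 0.03) and 11 with HDL NPs against PBS (median −0.14). Zfp36, whose product destabilises Tnf mRNA, stood at 520.3 ± 111, 559 ± 165 and 398 ± 133 TMM CPM in the PBS, EnzR EV and EnzR EV + HDL NP mice, and Zfp36l2 of the same family at 393 ± 61.6, 359 ± 99.3 and 323 ± 44.5 TMM CPM. Tnfaip2, a Tnf-induced gene, stood at 283 ± 37.5, 293 ± 7.87 and 303 ± 49.9 TMM CPM, and all 3 overlapped between groups.

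Other inducible genes that share regulators with the chemokines are given for comparison. Of 14 inflammatory genes tested, 13 were below 0 for EnzR EVs against PBS (median −0.34) and 8 with HDL NPs against PBS (median −0.07). The most abundant of them, the cytokine Il1b, stood at 267 ± 22.4, 236 ± 56.1 and 277 ± 97.9 TMM CPM, the urokinase receptor gene Plaur at 269 ± 42.7, 207 ± 36.4 and 237 ± 55.3, and the cytokine Osm at 239.8 ± 67.2, 142 ± 43.0 and 170.5 ± 36.3 TMM CPM. Of 20 immediate-early genes, 16 were below 0 for EnzR EVs against PBS (median −0.30, 8 with separate groups, against 4.52% of all genes) and 17 with HDL NPs against PBS (median −0.49, 7 with separate groups, against 6.21%). Fos, a subunit of AP-1, stood at 1276 ± 90.2, 800.3 ± 163 and 905 ± 205 TMM CPM, with both EV groups below every PBS mouse (log2 fold changes −0.67, SE 0.215, and −0.50, SE 0.214, adjusted p = 0.928 and 1.00, edgeR). Klf6 stood at 691 ± 34.4, 640.5 ± 36.1 and 639.4 ± 59.0 TMM CPM and Btg2 at 626 ± 49.1, 493 ± 50.7 and 593 ± 104 TMM CPM.

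Interferon-stimulated genes had the direction of Cxcl10. Of 26 tested, 25 were above 0 for EnzR EVs against PBS (median 0.82, 4 with separate groups, against 3.43% of all genes) and 26 with HDL NPs against PBS (median 1.00, 24 with separate groups, against 6.95%), and 0 passed an adjusted p of 0.05 by edgeR. Oas3 stood at 147 ± 13.5, 263 ± 64.8 and 227 ± 21.05 and Cmpk2 at 151 ± 14.6, 209.8 ± 35.1 and 204 ± 19.99 TMM CPM in the PBS, EnzR EV and EnzR EV + HDL NP mice (SD, n = 3 each). Oas3 and Cmpk2 were higher in every mouse given EVs than in every PBS mouse.

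**Figure D5:**
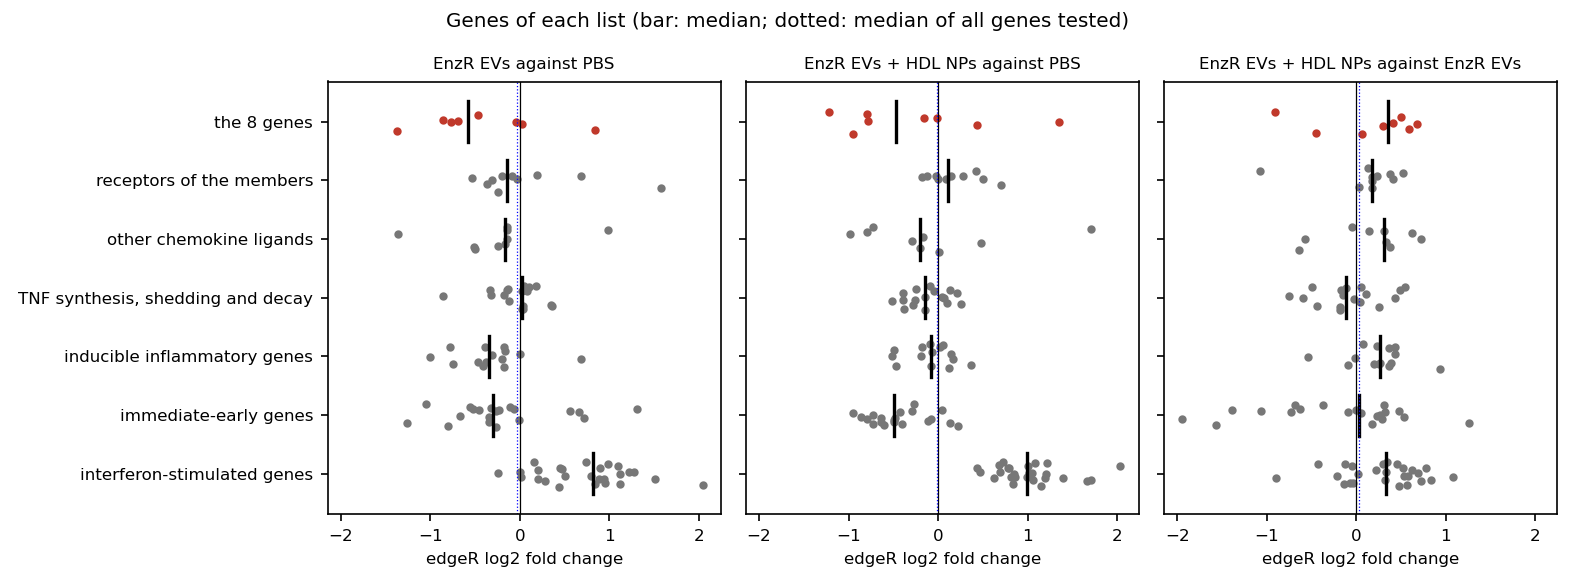
edgeR log2 fold changes of the tested genes of each list in the 3 comparisons; each point is 1 gene, the bar is the median of the list and the dotted line the median of all genes tested. The 8 genes have medians of −0.58, −0.47 and 0.36, and interferon-stimulated genes have medians of 0.82 and 1.00 against PBS. All 9 libraries are used. Without the 3 libraries of high Rn45s share, Cxcl10 and Ccl6 alone of the 8 genes stayed above 0 between the EV groups. For EnzR EVs against PBS, Cxcl10, Ccl2 and Tnf were then above 0 and the rest below it, with Cxcl2 at −0.14 and Ccl9 at −0.04.

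In bulk samples fewer cells of a type and less RNA per cell cannot be told apart, so marker genes of marrow cell types were summed beside these results. The 10 neutrophil markers in the files summed to 55506 to 114661 TMM CPM in PBS mice, 30911 to 123287 in EnzR EV mice and 83042 to 146557 in EnzR EV + HDL NP mice. The 10 monocyte markers summed to 3954 to 4589.6, 2516 to 4073 and 3569 to 4549.9 TMM CPM in the same order, and the 11 macrophage markers to 752 to 1517, 645 to 805 and 781 to 992 TMM CPM. Of these markers 10 of 10 neutrophil, 8 of 10 monocyte and 10 of 11 macrophage genes were below 0 for EnzR EVs against PBS, with medians of −0.19, −0.31 and −0.72, and 0, 2 and 5 of them were lower at an unadjusted edgeR p under 0.05, against 1.92% of all genes. With HDL NPs against PBS 3 of 10, 5 of 10 and 11 of 11 were below 0, with medians of 0.17, −0.02 and −0.41, and 0, 0 and 2 were lower at an unadjusted p under 0.05, against 1.12% of all genes. Between the EV groups 10 of 10, 9 of 10 and 8 of 11 were above 0, with medians of 0.23, 0.21 and 0.37. These sums overlapped between groups, as did those of the eosinophil, dendritic cell, NK and T cell, B lineage, erythroid, platelet and stromal lists. As with the macrophage markers, fold changes within some of these other lists had 1 direction. For EnzR EVs against PBS, all 8 B lineage markers (median −0.998, 3 at an unadjusted edgeR p under 0.05) and all 5 erythroid markers tested (median −0.96, 2 at an unadjusted p under 0.05) were below 0. With HDL NPs against PBS, the 8 B lineage (median −0.70), 5 erythroid (−0.42), 7 NK and T cell (−0.31) and 7 platelet markers tested (−0.64) were all below 0, with 1 gene among these 4 lists, of the B lineage, at an unadjusted p under 0.05. Between the EV groups the 5 erythroid markers were all above 0 (median 0.33). Among the lists only the 8 basophil and mast cell markers had sums that did not overlap, with 519.5 to 559 TMM CPM in PBS mice, 606 to 699 in EnzR EV mice and 447 to 499 in EnzR EV + HDL NP mice. Most members of that list went the other way from its sum, since 6 of 8 were below 0 for EnzR EVs against PBS (median −0.62), with 3 separate and lower, against 4.52% of all genes, and 1 separate and higher, against 3.43%. The erythroid genes Hba-a1 and Hba-a2 were at 0 in the counts of all libraries. The erythroid list still summed to 45.1 to 327 TMM CPM in EnzR EV + HDL NP mice. The cause of these 0 counts was not tested. The part of these cell types in the chemokine differences was not tested.

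Genes with the most similar pattern were found by the root mean square difference in log2 TMM CPM, centred per gene, over the 9 libraries. For Cxcl10 they were Ly6a (0.208), Gbp7 (0.277) and Cfb (0.292), for Ccl6 Rab37 (0.0979), Zfp959 (0.114) and Icosl (0.130), and for Ccl9 Acp1 (0.107), Pld4 (0.111) and the chemokine receptor gene Ccr2 (0.114). Cxcl2 was nearest to Chn2 (0.333), 1110001J03Rik (0.346) and Plk2 (0.348). For Ccl3 they were Clec4b1 (0.316), Snhg12 (0.324) and Bicd1 (0.342), for Ccl4 Stard10 (0.255), Snora78 (0.266) and Dnmt3b (0.279), for Tnf Paf1 (0.0879), Actg1 (0.0966) and Lilrb3 (0.108), and for Ccl2, which has few reads, Mterfd3 (0.480), Bex6 (0.489) and Nt5c3l (0.491).

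No gene of the 8 was among the 3 nearest to another. By this distance the closest pair among them was Ccl6 and Ccl9 (0.293), followed by Ccl6 and Tnf (0.322) and Cxcl2 and Ccl9 (0.422). The least similar was Cxcl10 and Ccl2 (1.504). Many other genes were nearer to Ccl6, for which Ccl9 stood in position 1095 and Tnf in position 1643 of 12552 genes. For Cxcl2, Ccl9 stood in position 30. Cxcl2 and Cxcl10 differed by 1.134 and Ccl3 and Ccl4 by 0.811. These values share the depth and the composition of the same 9 libraries and are descriptions.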

How the data were processed

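Total RNA-seq was performed on CD11b+ bone marrow cells of 9 mice, and for every library the authors deposited counts of reads on each gene, not normalised. Upstream of the counts, reads were trimmed with cutadapt 1.13, aligned with STAR to mm10 and assigned to UCSC genes with HTSeq 0.6.1p1, per the submitters' processing notes and the study's methods. Counts were tested in R 4.3.3 with edgeR 4.0.16 (TMM, filterByExpr with a minimum count of 10, robust quasi-likelihood fit over 9 libraries, 1 coefficient per group, Benjamini-Hochberg over 12553 genes, threshold 0.05), with DESeq2 1.42.0 and limma 3.58.1 as alternatives. Each of the 8 genes also had a two-sided exact permutation test over mice on log2 values with a prior count of 2. The fits were tested on simulated data. Levels per kb used exon lengths of GENCODE M21, and symbols not found were matched through RefSeq synonyms. Intervals and floors of 3 counts cover counting error only, since reads carry no molecular identifiers. PBS replicates 2 and 3, the most similar libraries of a group, were checked and were not duplicates (chi-square of 4.71 per gene).

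Same-numbered PBS and EnzR EV libraries deviated together (r = 0.473, 0.492 and 0.131 across genes), so the replicate number may pair them. Replicate 1 of both groups also had a high Rn45s share (20.3% and 42.7%) and the smallest total of its group. The part of library quality in these r values was not tested. Deviations were centred within each group of 3, so the 3 values of r are not independent. Same-numbered EnzR EV + HDL NP libraries gave r of 0.061, 0.293 and −0.175 with PBS. With EnzR EVs they gave −0.036, 0.209 and 0.121. The fold changes given are nevertheless from the fit without a block, unless said otherwise, and a block on the number was run as an alternative in all comparisons. Some pairs of different number also deviated together, such as PBS replicate 3 with EnzR EVs replicate 2 (r = 0.429) and PBS replicate 2 with EnzR EVs replicate 3 (r = 0.156). The labels do not state what the number marks. Samples were grouped by their titles. The genes and gene lists were chosen with earlier results of these data known. Named were all 8 genes, their receptors, the 3 most abundant genes of each other list and the 3 genes nearest in pattern; 2 genes that this rule takes in are not reported here. Other settings were the scaling, the filter, 6 libraries only, the block, genes or libraries left out, and, added after seeing the data, sample quality weights and 2 small libraries left out.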

Additional observations from a re-analysis of the deposited data

How the results depend on the processing

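By edgeR 0 genes passed in any comparison. For EnzR EVs against PBS, the number of genes called became 11 with DESeq2, 1 without a filter, 1 with the replicate block, 10 without the 3 libraries of high Rn45s share, 5 without the 2 smallest libraries, 1990 with voom and sample quality weights, and 0 to 2 with 1 library left out (2 without PBS replicate 1). With HDL NPs against PBS it became 8 with DESeq2 and 10 with weights. Between the EV groups it became 1 with DESeq2, with 6 libraries only, without the 3 or the 2 libraries, and 653 with weights, and 0 to 1 with 1 library left out. For any difference it became 14 with DESeq2, 8 and 2 without the 3 or the 2 libraries, 2383 with weights, and 0 to 1 with 1 library left out. Of the 8 genes 5, 0 and 1 passed with weights in the comparisons, and 6 for any difference; the cause was not tested.

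Scaling by library size only moved the median of all genes to −0.18 for EnzR EVs against PBS and 0.24 between the EV groups; Tnf at −0.11 stayed above the former median. With HDL NPs against PBS it moved the median to 0.047, and Ccl6 at 0.015 stayed below it. Signs turned as follows. For EnzR EVs against PBS, Tnf was −0.025 with the replicate block and −0.057 with weights, and Ccl2 was 0.96 without the 3 libraries and 0.47 without the 2 smallest. With 1 library left out Tnf ranged from −0.24 to 0.29 and Ccl2 from −1.22 to 0.26. For HDL NPs against PBS, Ccl6 was 0.017 with voom and 0.012 with the block, and ranged from −0.24 to 0.13, and Ccl9 from −0.27 to 0.019, with 1 library left out. Between the EV groups, without the 3 libraries, Cxcl2 was −0.51, Ccl3 −0.10, Ccl9 −0.10 and Tnf −0.0053, without the 2 smallest Cxcl2 was −0.0077, and with 1 library left out Cxcl2 ranged from −0.34 to 0.53 and Ccl2 from −1.36 to 0.27. The cause was not tested. The block changed no adjusted call of the 8 genes, and moved those at an unadjusted p under 0.05 from 3 to 5 for EnzR EVs against PBS, from 1 to 2 between the EV groups and from 3 to 5 for any difference. At 10 counts in every library 5 of the 8 genes were tested, and depth limits Ccl2, Cxcl10 and Ccl3 in EnzR EVs replicate 1.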
